A study of Mus musculus with 4 samples.

Results

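The 40 genes described here are 25 early response genes, from Fos to Myc, and 15 heat shock genes, from Hspa1a to Hsf1, chosen by gene symbol from a table of 17915 genes. All 40 were found in the table and all 40 passed the filter on low counts, among 13177 genes tested. The libraries were made from RNA of mouse lung endothelial cells, 2 of tdTomato+ and 2 of ZsGreen+ cells, and all are called biological replicates. Every mouse had the genotype Cdh5-CreER;aSMA-LSL-Dre;NR1, was given tamoxifen 5 times and was sampled 6 weeks after transverse aortic constriction (TAC), a narrowing of the aorta used in the study to bring on lung fibrosis. Cdh5-CreER is a tamoxifen-dependent recombinase driven by an endothelial promoter. The aSMA-LSL-Dre allele and the NR1 reporter turn a cell from ZsGreen to tdTomato once the gene of alpha smooth muscle actin (Acta2) has been active, so tdTomato marks the past and not the present state. There was no group without TAC, and the labels do not say whether libraries came from separate mice or pools, so p-values measure only the spread between these libraries. The labels also leave out how the cells were isolated.

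Immediate early genes are switched on within minutes of a stimulus, with no need for new protein, by transcription factors that already wait on their promoters. Kinase cascades act on serum response factor at CArG boxes and on CREB at cAMP response elements. The products include the AP-1 subunits, which then drive a second wave of genes, and brakes such as phosphatases and RNA decay factors that end the response. Heat shock genes encode chaperones that fold proteins and are raised by the factor Hsf1 at heat shock elements when unfolded protein accumulates. In endothelium early response genes answer growth factors, flow and inflammation.

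Promoters of 8 members are shown because they carry the elements named above or set apart genes whose reads are hard to separate. They are the 250 bases before the RefSeq start of each gene in GRCm38.p6, read 5′ to 3′ on the gene's strand, with the matched element in capitals. Zfp36 and Dusp5 hold CArG boxes, and Dusp1 and Btg2 a cAMP response element. Hspa1a and Hspa1b hold a heat shock element of 2 units, Hspe1 overlapping elements of 3 units, and Hspa5 an endoplasmic reticulum (ER) stress response element.
Zfp36 (chr7:28379229-28379478, minus strand): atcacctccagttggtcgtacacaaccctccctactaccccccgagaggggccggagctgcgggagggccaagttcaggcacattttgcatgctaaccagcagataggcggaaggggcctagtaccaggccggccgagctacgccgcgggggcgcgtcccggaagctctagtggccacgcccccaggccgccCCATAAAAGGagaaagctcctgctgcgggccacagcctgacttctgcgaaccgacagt
Dusp5 (chr19:53528895-53529144, plus strand): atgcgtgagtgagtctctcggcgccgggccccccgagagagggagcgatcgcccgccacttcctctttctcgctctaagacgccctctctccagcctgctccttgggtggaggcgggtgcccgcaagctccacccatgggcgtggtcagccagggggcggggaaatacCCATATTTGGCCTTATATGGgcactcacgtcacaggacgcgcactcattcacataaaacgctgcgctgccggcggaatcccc
Dusp1 (chr17:26508473-26508722, minus strand): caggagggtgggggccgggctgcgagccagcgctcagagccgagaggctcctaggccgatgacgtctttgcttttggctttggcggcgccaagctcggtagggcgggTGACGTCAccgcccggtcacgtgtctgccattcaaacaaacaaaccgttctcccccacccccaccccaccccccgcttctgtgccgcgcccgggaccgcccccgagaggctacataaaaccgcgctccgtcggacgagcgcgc
Btg2 (chr1:134079156-134079405, minus strand): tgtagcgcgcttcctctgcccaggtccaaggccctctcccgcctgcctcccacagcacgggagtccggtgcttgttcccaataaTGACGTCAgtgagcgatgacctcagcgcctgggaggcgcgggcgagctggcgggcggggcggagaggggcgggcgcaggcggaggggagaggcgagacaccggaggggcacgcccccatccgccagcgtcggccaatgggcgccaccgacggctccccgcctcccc
Hspa1a (chr17:34972157-34972406, minus strand): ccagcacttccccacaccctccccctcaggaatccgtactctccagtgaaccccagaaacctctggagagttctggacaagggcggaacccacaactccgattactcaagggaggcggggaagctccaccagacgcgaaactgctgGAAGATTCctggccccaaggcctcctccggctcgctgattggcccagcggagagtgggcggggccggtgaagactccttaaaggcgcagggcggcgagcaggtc
Hspa1b (chr17:34959239-34959488, minus strand): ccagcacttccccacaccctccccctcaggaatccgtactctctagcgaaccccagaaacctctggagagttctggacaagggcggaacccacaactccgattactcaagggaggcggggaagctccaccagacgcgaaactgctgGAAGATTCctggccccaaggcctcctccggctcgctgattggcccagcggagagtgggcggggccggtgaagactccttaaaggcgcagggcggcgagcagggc
Hspe1 (chr1:55087898-55088147, plus strand): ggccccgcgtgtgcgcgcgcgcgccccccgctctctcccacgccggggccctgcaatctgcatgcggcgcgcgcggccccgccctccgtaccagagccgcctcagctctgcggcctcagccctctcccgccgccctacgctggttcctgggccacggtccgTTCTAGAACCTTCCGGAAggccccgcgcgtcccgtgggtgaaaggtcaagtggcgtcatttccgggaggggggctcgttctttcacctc
Hspa5 (chr2:34771840-34772089, plus strand): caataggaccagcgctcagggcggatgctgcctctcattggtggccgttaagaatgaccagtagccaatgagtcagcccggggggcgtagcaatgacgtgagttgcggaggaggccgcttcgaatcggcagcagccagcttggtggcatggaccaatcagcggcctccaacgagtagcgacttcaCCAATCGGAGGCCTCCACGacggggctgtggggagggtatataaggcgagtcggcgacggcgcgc

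The table of promoter windows, each 300 bases long from 250 before to 50 after a start, held 31 of the 40 members and 32851 windows in all. A gene was counted once if any of its windows held the motif on either strand. A gene with several windows so had more chances of a match than a single window. Counts of genes and shares of windows are therefore unlike measures. Members without a window were not searched. The CArG box lay in 3 of 20 early response genes, Dusp5, Egr2 and Zfp36, and in 1.63% of all windows. The cAMP response element TGACGTCA lay in 2 of 20, Btg2 and Dusp1, and in 1.79% of all windows. The AP-1 site TGACTCA lay in none of the 20 early response genes, in 2 of 11 heat shock genes, Bag3 and Hspa5, and in 5.20% of all windows. The heat shock element of 2 units, GAANNTTC, lay in 8 of 11 heat shock genes, in 2 of 20 early response genes, Fosl2 and Jun, and in 7.86% of all windows. That of 3 units, GAANNTTCNNGAA, contains the shorter one. It lay in Hspd1, Hspe1 and Hsph1 and in 0.603% of all windows. The ER stress response element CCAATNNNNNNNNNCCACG lay in Hspa5 only among the members and in 0.119% of all windows. A match is a description of the letters and not of a bound site.

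No member of either group passed the test between tdTomato+ and ZsGreen+ cells that left the replicate numbers out. edgeR's quasi-likelihood test with Benjamini-Hochberg adjustment called 0 of 40 members, against 0.304% of all genes tested (40 of 13177). The members' adjusted p lay between 0.287 and 1. At an unadjusted p under 0.05 there were 5 members, or 12.5%, against 8.77% of all genes tested. DESeq2 also called 0 of 40, against 2.50% of all genes, and limma-voom 0 of 40, against 0.250%. The median log2 fold change, tdTomato+ over ZsGreen+, was 0.10 over the early response genes and -0.05 over the heat shock genes, beside -0.01 over all genes tested. The first ranged from -0.23 without ZsGreen+ replicate 2 to 0.52 without ZsGreen+ replicate 1, and the second from -0.27 without tdTomato+ replicate 1 to 0.12 without tdTomato+ replicate 2. With 2 libraries a group this leaves wide intervals. The 95% interval lay wholly within 1 of 0 on the log2 scale, that is under a 2-fold difference either way, for 24 of the 40 members, 11 early response and 13 heat shock genes. With the replicate number as a block edgeR called Dusp6, Egr2 and Nr4a2, in a fit that called 7.09% of all genes. The labels do not say whether equal numbers pair the libraries. The call without a block depended on 1 library. Without ZsGreen+ replicate 1 edgeR called 2 of 40 members, Nr4a1 higher (log2 fold change 1.08, adjusted p = 0.0431) and Dusp6 lower (-1.07, adjusted p = 0.0441), in a fit that called 2.21% of all genes. Acta2, the gene read by the recorder, stood at 304 and 528 CPM (counts scaled to library size, with TMM factors) in the tdTomato+ libraries, against 87.6 and 82.9 CPM in the ZsGreen+ ones (log2 fold change 2.29, SE 0.29, edgeR adjusted p = 0.0432).

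**Figure D1:**
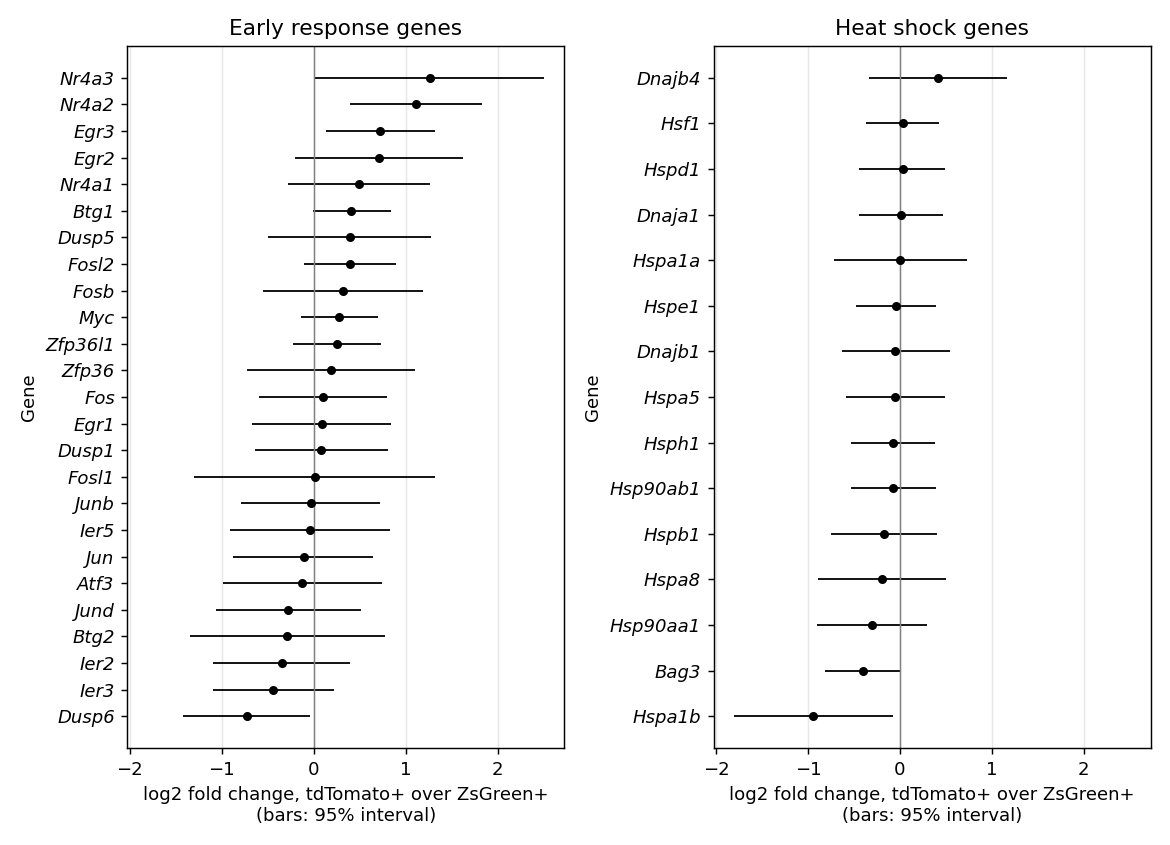
Log2 fold change of each of the 40 genes, tdTomato+ over ZsGreen+ cells (points), with its 95% interval from edgeR (bars), for early response genes (left) and heat shock genes (right). Values run from -0.73 for Dusp6 to 1.26 for Nr4a3 on the left and from -0.94 for Hspa1b to 0.41 for Dnajb4 on the right.

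Both lists held abundant genes in every library, and scarce ones as well. The 40 genes took 3.10%, 2.31%, 3.05% and 2.09% of all counts in tdTomato+ replicates 1 and 2 and ZsGreen+ replicates 1 and 2. By mean TPM, which is scaled per length and so allows genes to be compared, 16 of the 40 lay among the first 500 of 17915 genes, 12 of them early response genes. Hspa8 (3255 TPM) was 36th in that order, Fos (1964 TPM) 71st and Hsp90ab1 (1665 TPM) 95th. Junb (1430 TPM) was 116th, Hspb1 (1170 TPM) 147th and Ier3 (1126 TPM) 154th. The stress-inducible Hspa1a (101 TPM) was 1558th and Dnajb1 (83.5 TPM) 1870th. The lowest were Hspa1b (4.41 TPM) and Nr4a3 (1.05 TPM). In bulk samples fewer cells of a type and less RNA per cell cannot be told apart.

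The AP-1 subunits, which pair as Fos and Jun family dimers on DNA, overlapped between the groups in 7 of 8 genes, as did 8162 of all 13177 genes tested. Fos stood at 2966 and 2239 CPM in the tdTomato+ libraries, against 3050 and 1813 CPM in the ZsGreen+ ones, so the groups overlapped (2602 ± 514 and 2432 ± 875, mean ± SD, n = 2 each). Its log2 fold change was 0.10 (SE 0.30, 95% interval -0.60 to 0.80, edgeR adjusted p = 0.972). Jun, its usual partner, stood at 2113 and 1382 CPM against 2379 and 1405 CPM, with a log2 fold change of -0.11 (SE 0.32). Junb, a partner with weaker activity of its own, read 1766 and 1367 CPM against 2083 and 1121 CPM. In each of these 3 genes the libraries labelled replicate 1 were high in both groups and those labelled replicate 2 low. Fosb stood at 1816 and 1257 CPM against 1663 and 799.6 CPM, and Atf3, a stress-induced member of the wider family, at 970.2 and 665 CPM against 1202 and 584 CPM. Jund, the Jun protein with the steadiest expression in most cells, had 832 and 708 CPM against 1246 and 619.6 CPM.

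Fosl2 was the one AP-1 gene whose groups did not overlap, at 348 and 272 CPM in the tdTomato+ libraries, against 258 and 216 CPM in the ZsGreen+ ones, with a log2 fold change of 0.39 (SE 0.21, edgeR adjusted p = 0.724). Fosl1, which lacks a strong activation domain, was low, at 4.13 and 6.83 CPM against 2.91 and 7.94 CPM. It was the one AP-1 gene with the higher level in replicate 2 of both groups. The 8 genes together summed to 10815 and 7896 CPM in the tdTomato+ libraries, against 11883 and 6567 CPM in the ZsGreen+ ones.

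**Figure D2:**
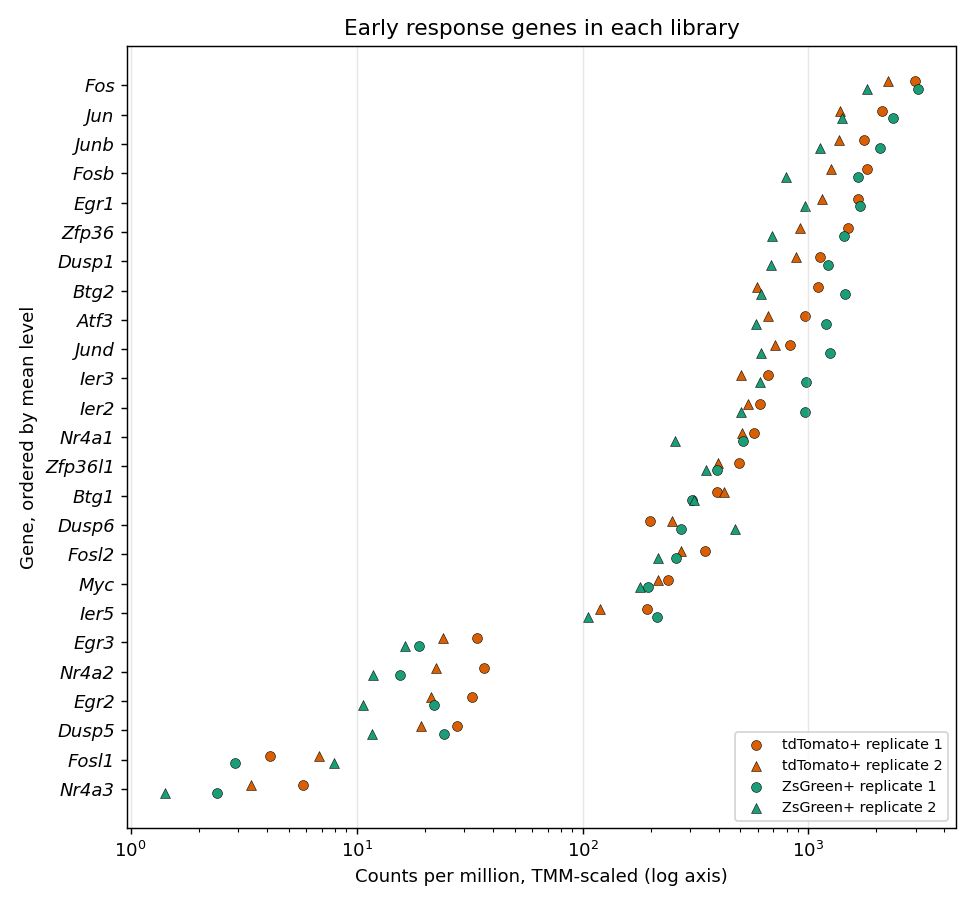
Level of each of the 25 early response genes in TMM-scaled CPM (log axis), with orange for tdTomato+ and green for ZsGreen+ libraries, circles for replicate 1 and triangles for replicate 2. For most genes circles lie to the right of triangles of the same colour, as in Fos at 2966 and 3050 CPM against 2239 and 1813 CPM, while colours intermix.

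The nuclear receptors of the Nr4a family, orphan receptors that act without a known hormone, held the 2 largest fold changes of the early response genes. Nr4a2 stood at 36.6 and 22.4 CPM in the tdTomato+ libraries, against 15.6 and 11.8 CPM in the ZsGreen+ ones (29.5 ± 10 against 13.7 ± 2.64, n = 2 each). Both tdTomato+ libraries were above both ZsGreen+ libraries, with a log2 fold change of 1.11 (SE 0.30, 95% interval 0.39 to 1.83, edgeR adjusted p = 0.287). Nr4a3 was lower still, at 5.78 and 3.41 CPM against 2.40 and 1.42 CPM, again without overlap (1.26, SE 0.53, adjusted p = 0.566). Nr4a1, the most abundant of the 3, stood at 576 and 507 CPM against 513 and 256 CPM. There ZsGreen+ replicate 2 was low and the other 3 libraries close together, so the log2 fold change of 0.49 (SE 0.33) became 0.08 without that library.

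Of the Egr zinc finger factors, which bind GC-rich promoter sites, the abundant Egr1 overlapped between the groups and the scarce Egr3 did not. Egr1 stood at 1660 and 1150 CPM in the tdTomato+ libraries, against 1685 and 964 CPM in the ZsGreen+ ones, with overlap and a log2 fold change of 0.09 (SE 0.32). Egr3 had 34 and 24.2 CPM against 18.9 and 16.3 CPM, without overlap, and a log2 fold change of 0.72 (SE 0.25, edgeR adjusted p = 0.444). Egr2, known from nerve and immune cells, had 32.3 and 21.3 CPM against 22.1 and 10.7 CPM, where only tdTomato+ replicate 2 reached the ZsGreen+ range (0.71, SE 0.38). Myc, a driver of growth, was the steadiest of these factors at 239 and 216 CPM against 195 and 180 CPM (0.28, SE 0.18). All 7 members from the Egr, Nr4a and Myc families had a fold change above 0, from 0.09 to 1.26. That of Egr1, however, was -0.21 without tdTomato+ replicate 1 and -0.27 without ZsGreen+ replicate 2. Egr4, an Egr factor not among the members, went the other way at a very low level. It had 1.65 and 1.26 CPM against 1.77 and 1.7 CPM (-0.25, SE 0.57). Of the 7, 4 had both tdTomato+ libraries above both ZsGreen+ libraries, as did 19.9% of all genes tested.

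The brakes of the response gave no common direction. Dusp1, a nuclear phosphatase that inactivates stress kinases, stood at 1127 and 885 CPM against 1216 and 682 CPM. Dusp5, a nuclear phosphatase for ERK, had 27.7 and 19.3 CPM against 24.3 and 11.7 CPM. Both overlapped between the groups. Dusp6, the cytoplasmic ERK phosphatase whose RNA follows ERK activity, was the exception at 199 and 250 CPM in the tdTomato+ libraries, against 272 and 471 CPM in the ZsGreen+ ones. Here ZsGreen+ replicate 2, low for most early response genes, was the highest of the 4 libraries (log2 fold change -0.73, SE 0.29, edgeR adjusted p = 0.538). Without that library it was -0.28.

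Zfp36 (tristetraprolin), which marks AU-rich RNAs such as those of Fos and cytokines for decay, stood at 1495 and 920 CPM against 1434 and 689 CPM. Its relative Zfp36l1 did not overlap between groups, at 494 and 397 CPM against 395 and 353 CPM (a log2 fold change of 0.25, SE 0.20). Btg2, a p53-responsive brake on proliferation, had the widest gaps of the abundant members, at 1103 and 589 CPM against 1453 and 615 CPM. Btg1, its relative, had almost none, at 395 and 423 CPM against 304 and 311 CPM, so its groups did not overlap (0.41, SE 0.18, edgeR adjusted p = 0.584). The small early response proteins had fold changes below 0, from -0.44 to -0.04, although that of Ier5 turned to 0.15 on the deposited TPM scale and to 0.01 with upper quartile factors. Ier2 stood at 612 and 539 CPM against 962 and 502 CPM, Ier3, a survival factor, at 664 and 502 CPM against 974 and 612 CPM, and Ier5, a coactivator of Hsf1, at 192 and 119 CPM against 214 and 106 CPM. In all 3 the highest library by CPM was ZsGreen+ replicate 1. By deposited TPM Ier5 was highest in tdTomato+ replicate 1, at 101 against 91.4 in ZsGreen+ replicate 1.

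Across both lists 8 of 40 members had both tdTomato+ libraries above both ZsGreen+ libraries, Fosl2, Egr3, Nr4a2, Nr4a3, Myc, Btg1, Zfp36l1 and Dnajb4. The same held for 19.9% of all genes tested. The opposite, both tdTomato+ libraries below, held for 3 members, Dusp6, Hspa1b and Bag3, and for 18.2% of all genes. The first count was close to the share among all genes, and the second was below it. Shares differ with level. Of the 2078 genes at a mean of 100 CPM or more, 176 had both tdTomato+ libraries above and 664 had both below. Beside these genes the members' first share was higher and the second lower, though not all members are that abundant.

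The larger differences lay within the groups. In 22 of 25 early response genes the library labelled replicate 1 was above that labelled replicate 2 both in tdTomato+ and in ZsGreen+ cells, against 29.0% of all genes tested. The other 3, Fosl1, Dusp6 and Btg1, had replicate 2 higher in both groups, as did 27.9% of all genes. The 25 genes summed to 19708 and 14483 CPM in the tdTomato+ libraries, against 21582 and 12360 CPM in the ZsGreen+ ones. Their median log2 ratio of replicate 1 over replicate 2 was 0.41 in tdTomato+ and 0.81 in ZsGreen+ cells, where that of all genes tested was 0.00 and 0.01. Of the 22, Btg2 differed most, 1.87-fold in tdTomato+ and 2.36-fold in ZsGreen+ cells, followed in ZsGreen+ cells by Fosb and Zfp36, each 2.08-fold. Without regard to sign, the median gap was 0.49 and 0.83 for early response genes, 0.28 and 0.31 for heat shock genes and 0.15 and 0.26 for the 2078 genes at a mean of 100 CPM or more. On the deposited TPM scale 19 of 25 early response genes still had replicate 1 higher in both groups, against 22.2% of all genes. Replicate numbers come from the labels, which do not say that equal numbers share a mouse or a day.

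**Figure D3:**
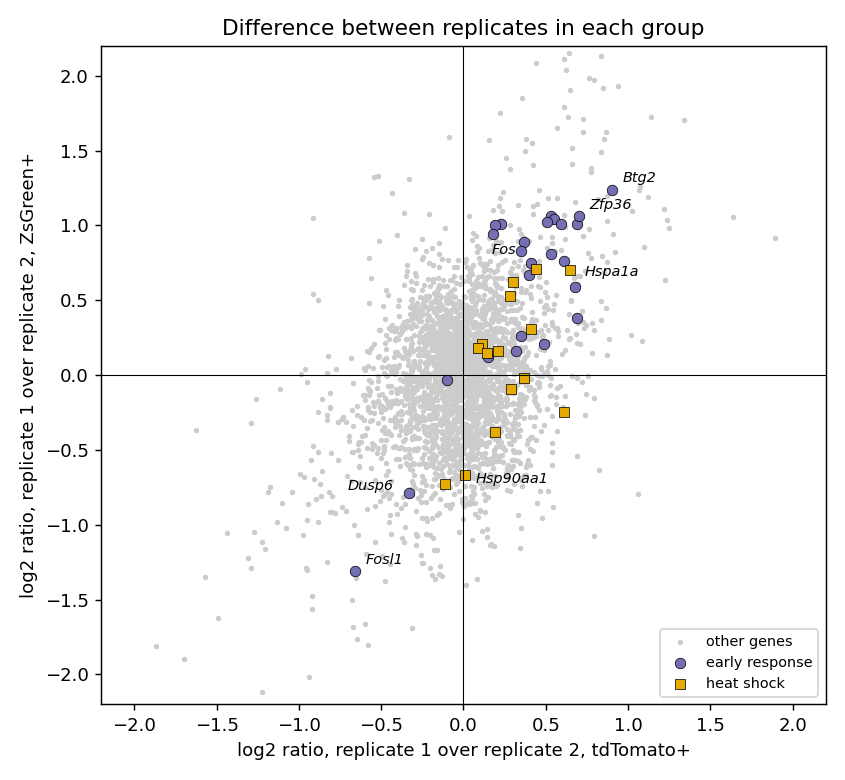
Log2 ratio of replicate 1 over replicate 2 in tdTomato+ (x axis) and ZsGreen+ cells (y axis), for early response genes (violet circles), heat shock genes (yellow squares) and 3000 other genes at a mean of 10 CPM or more (grey, 17 of them outside the axes). Of the 25 early response genes 22 lie in the upper right, with Btg2 farthest out, while Fosl1, Dusp6 and Btg1 lie in the lower left.

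Most markers of macrophages, T and NK cells and B cells were higher in replicate 1 of both groups as well. The 8 macrophage markers summed to 5413 and 2536 CPM in the tdTomato+ libraries, against 2991 and 630 CPM in the ZsGreen+ ones. Most of that was Lyz2, at 3953 and 1969 CPM against 2269 and 469 CPM. All 8 had a fold change above 0 between the groups, with 0 called by edgeR and 2 at an unadjusted p under 0.05. Of the 8, 6 were higher in replicate 1 of both groups. Marco was higher in replicate 2 of both, at 11.3 and 55.2 CPM against 5 and 12.7 CPM. All 3 tested T and NK cell markers and all 3 B cell markers were higher in replicate 1 of both groups too. Cd3d, a T cell marker too low to be tested, was higher in replicate 2 of both, at 0.165 and 0.42 CPM against 0.253 and 0.329 CPM. Sums were 3.67 to 8.92 CPM for T and NK cell markers, Cd3d included, and 1.10 to 10.6 CPM for B cell markers. Some rested on few reads, as Ms4a1 with estimated counts of 21 and 3 against 22 and 1. The 10 endothelial markers summed to 9710 and 9565 CPM against 12561 and 10799 CPM. Of these 2, Pecam1 and Cdh5, were higher in replicate 1 of both groups and 6 were higher in replicate 2 of both. The 7 fibroblast markers summed to 232 and 430 CPM against 93.0 and 116 CPM, and none was higher in replicate 1 of both. The 4 alveolar type 2 markers summed to 363 and 427 CPM against 227 and 115 CPM. The 5 neutrophil markers summed to 42.4 and 45.4 CPM against 31.1 and 15.8 CPM, and 2 of them were higher in replicate 1 of both groups. The 6 of pericytes and smooth muscle summed to 1352 and 1811 CPM against 1310 and 909 CPM. Almost all of that was Tagln, at 1336 and 1787 CPM against 1300 and 894 CPM. Sums were at most 36.1 CPM for alveolar type 1 and 30.4 CPM for platelet markers. The part of these cell types in the early response values was not tested.

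A further 44 early response genes, among them Klf, Gadd45 and Socs3 genes, were listed beside the 25. Of the 43 tested edgeR called none, 1 had an unadjusted p under 0.05, and their median log2 fold change was -0.03. Replicate 1 was higher in both groups in 27 of 43 (62.8%), against 29.0% of all genes tested. The 3 with the smallest p were Ier5l, Cebpd and Bhlhe40. Ier5l, a relative of Ier5, stood at 16.7 and 28.6 CPM against 28.0 and 95.8 CPM (a log2 fold change of -1.45, SE 0.55, edgeR adjusted p = 0.503), and its high library was again ZsGreen+ replicate 2. Cebpd, an inflammatory transcription factor, had 427 and 366 CPM against 627 and 473 CPM (-0.47, SE 0.22). Bhlhe40, a repressor tied to the clock and hypoxia, had 396 and 434 CPM against 281 and 340 CPM (0.42, SE 0.20).

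Heat shock genes split into members that shared the replicate pattern and members that did not. Hspa8, the constitutive Hsp70 of the cytosol and the most abundant of the 40, stood at 4503 and 3312 CPM in the tdTomato+ libraries, against 5537 and 3383 CPM in the ZsGreen+ ones (3908 ± 842 against 4460 ± 1524, n = 2 each). Its log2 fold change was -0.19 (SE 0.29, 95% interval -0.89 to 0.50, edgeR adjusted p = 0.935). Hspa1a, the stress-inducible Hsp70, had 216 and 137 CPM against 219 and 134 CPM, a log2 fold change of 0.00 (SE 0.31). Dnajb1, the J protein that feeds clients to Hsp70, had 171 and 139 CPM against 194 and 126 CPM, and Hspb1, the small heat shock protein that binds actin, 581 and 478 CPM against 705 and 489 CPM. In these 4 genes replicate 1 was high and replicate 2 low in both groups, as in 7 of the 8 AP-1 genes.

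Hsp90ab1, the constitutive cytosolic Hsp90, stood at 2584 and 2430 CPM against 2791 and 2461 CPM (a log2 fold change of -0.07, SE 0.19). Hsp90aa1, the inducible one, had 238 and 237 CPM in the tdTomato+ libraries, against 226 and 360 CPM in the ZsGreen+ ones, with ZsGreen+ replicate 2 high (-0.30, SE 0.25). Hspd1 and Hspe1 encode Hsp60 and Hsp10, the chaperonin and its lid in mitochondria, and lie head to head on chromosome 1, where a promoter window of each shares 285 of 300 bases with the other. Hspe1 had 54.2 and 50.2 CPM against 57.8 and 49.8 CPM (-0.04, SE 0.18), and Hspd1 126 and 111 CPM against 101 and 131 CPM (0.03, SE 0.20). Hsf1, the factor that drives the programme, read 101 and 91.5 CPM against 99.0 and 89.4 CPM (0.03, SE 0.17).

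Among the remaining chaperones Bag3, a cochaperone of Hsp70 in selective autophagy, lay below in both tdTomato+ libraries, at 135 and 117 CPM against 176 and 158 CPM (a log2 fold change of -0.40, SE 0.17, edgeR adjusted p = 0.585). Hspa5 (BiP), the Hsp70 of the ER and the member with the ER stress element, had 864 and 651 CPM against 869 and 699 CPM (-0.05, SE 0.23). Hsph1 (Hsp110) had 81.9 and 63.5 CPM against 76.1 and 77.0 CPM, and Dnaja1 296 and 241 CPM against 259 and 276 CPM, so both had replicate 1 higher in tdTomato+ cells only. Dnajb4 was scarce, at 15.6 and 16.8 CPM against 9.05 and 15.3 CPM (0.41, SE 0.32). In all, replicate 1 was higher in both groups in 9 of 15 heat shock genes, against 29.0% of all genes tested. On the deposited TPM scale it was higher in 5 of 15, against 22.2% of all genes.

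**Figure D4:**
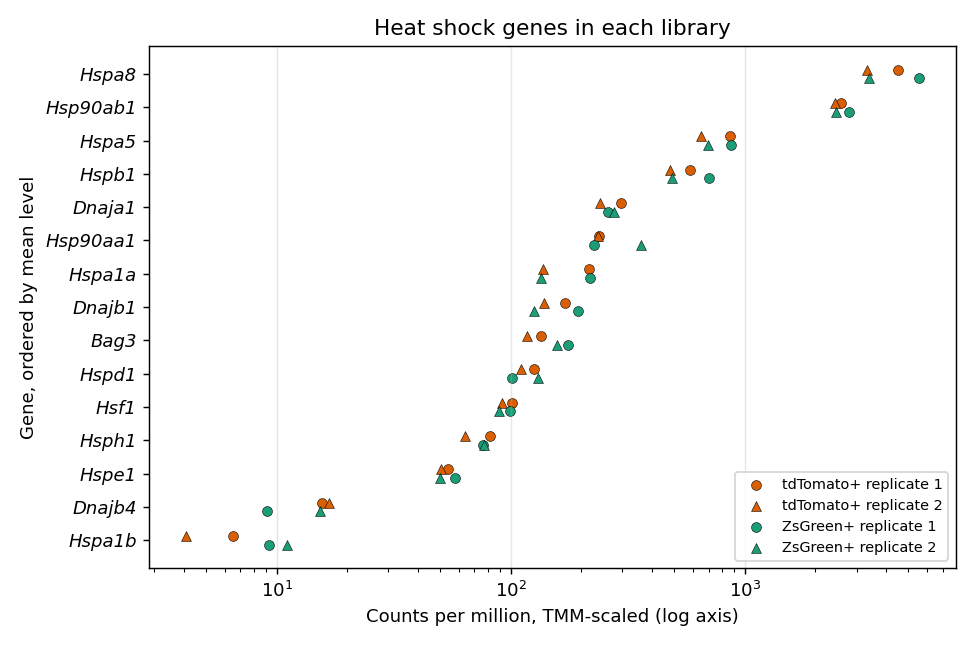
Level of each of the 15 heat shock genes in TMM-scaled CPM (log axis), with orange for tdTomato+ and green for ZsGreen+ libraries, circles for replicate 1 and triangles for replicate 2. The 4 points of Hsp90ab1, Hsf1 and Hspe1 lie close together, while Hspa8 ranges from 3312 to 5537 CPM and Hspa1b is the lowest gene.

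Hspa1b needs care because it is a near copy of Hspa1a. Its levels were 6.49 and 4.10 CPM in the tdTomato+ libraries, against 9.24 and 11.1 CPM in the ZsGreen+ ones, without overlap (log2 fold change -0.94, SE 0.37, edgeR adjusted p = 0.520). Of all stretches of 100 bases in Hspa1b transcripts of the GENCODE M21 set, 49.9% also occur in Hspa1a, and the promoter windows of both genes, printed above up to the start, agree in 296 of 300 bases (98.7%). The deposited counts of both are not whole numbers, as when reads are shared between rows. Those of Fosl1 and Hspa5 were not whole either, though none of their stretches was shared. Those of Hspa8, Hspb1, Hsp90aa1, Hspd1, Hspe1 and Dnaja1 were whole, though part of their stretches was shared. Hspa1b took 2.92% and 2.88% of the pair's counts in tdTomato+ and 4.04% and 7.67% in ZsGreen+ cells. The sum of both, 222 and 141 CPM against 228 and 145 CPM, overlapped between the groups. Long stretches shared with other annotated genes, some of them named as pseudogenes, were also found for Hspa8 (56.5%), Hspb1 (44.0%), Hsp90aa1 (40.7%), Hspd1 (23.4%), Hspe1 (20.4%) and Dnaja1 (13.9%), so their levels are less certain. For the 25 early response genes at most 0.541% was shared, in Btg1.

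Other chaperones and cochaperones of the cytosol and mitochondria lay nearer to the genes at large. Of 47, all tested, replicate 1 was higher in both groups in 15 (31.9%), and the median log2 fold change was -0.07. edgeR called none of them, and 2 had an unadjusted p under 0.05. Hspb8, a small heat shock protein that works with Bag3, came nearest, at 80.8 and 77.5 CPM in the tdTomato+ libraries, against 184 and 156 CPM in the ZsGreen+ ones (log2 fold change -1.10, SE 0.17, edgeR adjusted p = 0.0865). DESeq2 called it lower (adjusted p = 2.49e-05). Fkbp5, a glucocorticoid-responsive cochaperone of Hsp90, had 121 and 109 CPM against 84.9 and 61.0 CPM (0.66, SE 0.21, edgeR adjusted p = 0.387), and Hspa12a 8.58 and 4.46 CPM against 14.1 and 10.2 CPM (-0.90, SE 0.40). Of 20 ER stress genes edgeR called none and none had an unadjusted p under 0.05, and the median was -0.12. Of these 20, 12 were higher in replicate 1 of both groups, against 29.0% of all genes tested. The 3 with the smallest p were Atf4, at 201 and 158 CPM against 271 and 203 CPM (-0.40, SE 0.22), Manf (-0.37, SE 0.21) and Creld2 (-0.29, SE 0.19).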

How the data were processed

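Bulk RNA-seq libraries were analysed from a gene table made by the authors. RSEM 1.3.1 and DESeq2 1.4.5 are named in the submitters' processing notes without a role, while aligner and strand setting were not found in labels or header. Per the labels' protocols little RNA was used and amplified as whole transcriptome, which can widen the spread of scarce genes. The deposited table held estimated counts, 16.2% to 17.9% of them not whole, and the authors' TPM, FPKM and normalized signal, of which FPKM and the signal were not used. Library totals were 17050673 to 18574737, with TMM factors of 0.927 to 1.045.

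Counts were rounded and tested with edgeR 4.0.16 in R 4.3.3 (quasi-likelihood test, TMM, filterByExpr at a minimum count of 10, Benjamini-Hochberg over 13177 genes, called at an adjusted p under 0.05). The biological coefficient of variation was 26.1%. Alternatives were DESeq2 1.42.0, limma 3.58.1 (voom, and TPM on the log2 scale), other scaling and filters, a replicate block and each library left out. Ratios between replicates were taken after adding 0.5 CPM. On simulated data with the real means edgeR called 40% of 2-fold and 94% of 4-fold changes and 0.133% of unchanged genes. Changes were put only on genes above a low level, which Nr4a3, the scarcest member, did not reach. Simulated libraries varied independently, while the real replicate differences of both groups correlated at 0.49, so these shares may not hold for the real libraries. Promoters come from RefSeq on GRCm38.p6, and 17862 of 17915 genes matched by NCBI Gene identifier. Transcript stretches of 100 bases come from GENCODE M21. The 40 members and the other lists were chosen with earlier results of these data known. All members were named, with Acta2 and, of each other pathway list, called genes and the 3 with the smallest p at a mean of 1 CPM or more.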

Additional observations from a re-analysis of the deposited data

How the results depend on the processing

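Calls were few with 2 libraries a group. Against 40 genes called in all, DESeq2 called 330, no filter on low counts 128, and log2(TPM + 0.1) 22, while leaving out each library in turn gave 4 to 304. Members called stayed at 0 under the other scalings, filters and tools, and ranged from 0 to 2 with a library left out. With the replicate number as a block edgeR called 934 genes (7.09%) and 3 members, Dusp6 (-0.68, adjusted p = 0.0353), Egr2 (0.77, adjusted p = 0.0457) and Nr4a2 (1.08, adjusted p = 0.00116). The labels do not say whether equal numbers share a mouse or a day. The replicate differences of both groups correlated at 0.49 over 8986 genes at a mean of 10 CPM or more.

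The heat shock median ranged from -0.27 to 0.12 with a library left out. On the TPM scale, an alternative chosen after seeing the data, 5 heat shock genes were higher in replicate 1 of both groups. Of 686 values of single genes under alternatives, 77 changed direction, none of them called. With RLE factors and DESeq2 Hspa1a was -0.01 and Dnaja1 -0.00, and with no filter Hspa1a was -0.00. With limma-voom and the replicate block Junb was 0.02 and Ier5 0.00. With upper quartile factors Junb was 0.02, Ier5 0.01, Hspe1 0.00 and Dnajb1 0.00. Log2 TPM moved the median of all genes to 0.12 (0.13 with 0.1 added), the early response median to 0.29 and the heat shock median to 0.10, and beside that shift Jun was 0.05, Junb 0.18, Atf3 0.09, Ier5 0.15 (0.16), Hspa5 0.10, Hsph1 0.06, Hspb1 0.00, Hspe1 0.12, Hsp90ab1 0.09 and Dnajb1 0.13. With a library left out the log2 fold change ran from -0.23 to 0.52 for Fos, -0.12 to 0.95 for Fosb, -0.53 to 0.91 for Fosl1, -0.46 to 0.32 for Jun, -0.41 to 0.49 for Junb, -0.70 to 0.32 for Jund and -0.56 to 0.49 for Atf3. It ran from -0.27 to 0.55 for Egr1, -0.74 to 0.20 for Ier2, -0.46 to 0.56 for Ier5, -0.28 to 0.56 for Dusp1, -0.05 to 1.01 for Dusp5, -0.81 to 0.46 for Btg2 and -0.25 to 0.81 for Zfp36. For heat shock genes it ran from -0.36 to 0.40 for Hspa1a, -0.51 to 0.21 for Hspa8, -0.27 to 0.16 for Hspa5, -0.27 to 0.12 for Hsph1, -0.42 to 0.12 for Hspb1, -0.15 to 0.23 for Hspd1 and -0.15 to 0.07 for Hspe1. The others ran from -0.60 to 0.07 for Hsp90aa1, -0.16 to 0.03 for Hsp90ab1, -0.15 to 0.17 for Dnaja1, -0.33 to 0.30 for Dnajb1 and -0.05 to 0.12 for Hsf1. A group with 1 library left was assumed to vary like the other. The cause of these changes was not tested.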
